A study of Homo sapiens with 8 samples.

Results

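The chaperonin TRiC, also called CCT, was examined through the RNA of its 8 subunit genes, TCP1, CCT2, CCT3, CCT4, CCT5, CCT6A, CCT7 and CCT8. They are the named subunits of the complex, whatever their values, and all 8 were found by symbol among the 60617 genes of the deposited count table. RNA sequencing was done on MCF-10A, an established non-tumorigenic epithelial cell line from human breast, in 2 lines that the labels name Empty and NeuT. Each line was either left untreated or kept for 12 h in 1 µM JG-98, a small molecule inhibitor of the Hsp70 chaperones, with 2 libraries in each of the 4 groups. All cells were grown in the same medium with horse serum, epidermal growth factor, hydrocortisone, insulin and cholera toxin. The labels do not say what the NeuT cells carry, which promoter drives it or whether a line is 1 clone, and the untreated cells are not described as having received a solvent. The series states as its aim a comparison of drug sensitivity involving transformed cells. The labels also do not say that replicates came from separate cultures, so the p-values measure only the spread between these samples, which may be technical.

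TRiC is the folding chamber of the eukaryotic cytosol. It is built from a pair of stacked rings, each holding a single copy of every subunit, and it closes around an unfolded protein when it hydrolyses ATP. Actins and tubulins depend on it to fold, as do many proteins with WD repeats. Within a ring, CCT5, CCT2, CCT4 and TCP1 sit on the side that binds and uses ATP strongly, and CCT3, CCT6A, CCT8 and CCT7 sit on the side that uses it weakly. Prefoldin hands nascent actin and tubulin to the chamber, and Hsp70 passes it some of its other clients.

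The subunits were abundant. Each had between 12075 and 31581 counts in every library, and all 8 passed the filter on low counts that left 17693 genes for testing. Levels are given below in CPM, a count divided by the library size, which was adjusted by the trimmed mean of M-values (TMM). Total counts were 55050996 to 56861971 per library except for 37341458 in Empty treated replicate 1. The labelled cell type was checked first. All 9 markers of breast epithelium were at 1 CPM or more in every library, with a summed level of 23500 to 31000 CPM, and the 5 markers of fibroblasts, endothelium and blood summed to 13.9 to 20.8 CPM. Of these 5, COL1A1 (4.70 to 5.83 CPM) and PECAM1 (7.85 to 15.0 CPM) were above 1 CPM in every library, and both were above the epithelial marker TP63 in Empty cells (2.69 to 3.65 CPM). PDGFRB and CDH5 stayed under 1 CPM, and PTPRC, the blood marker, was listed at 0 in 5 libraries. Drug exposure was checked with ATF4, the transcription factor of the integrated stress response, which rose with JG-98 by 0.51 in Empty and 1.34 in NeuT on the log2 scale (edgeR's quasi-likelihood test with Benjamini-Hochberg adjustment, adjusted p = 0.0157 and 1.7e-06). The Empty call was lost when any 1 of the 4 Empty libraries was left out, with adjusted p-values of 0.0773 to 0.372 by edgeR.

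The 8 genes lie on 7 chromosomes of GRCh38. TCP1 (ENSG00000120438) spans chr6:159778498-159789703 on the minus strand, CCT2 (ENSG00000166226) chr12:69585426-69601570 on the plus strand, CCT3 (ENSG00000163468) chr1:156308968-156367873 on the minus strand and CCT4 (ENSG00000115484) chr2:61868085-61888671 on the minus strand. CCT5 (ENSG00000150753) spans chr5:10249929-10266389 on the plus strand, CCT6A (ENSG00000146731) chr7:56051685-56063989 on the plus strand, CCT7 (ENSG00000135624) chr2:73233420-73253021 on the plus strand and CCT8 (ENSG00000156261) chr21:29055805-29073797 on the minus strand. Their coding sequences are alike in length, from 1593 to 1668 bases in GENCODE 29. No run of 50 bases in the principal transcript of a subunit occurred in that of another subunit.

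Stretches upstream of RefSeq transcript starts are shown for 4 members that span the range of the results. These are TCP1, with the largest difference between the lines, CCT2, and CCT3 and CCT7, which were not called. The stretches come from RefSeq promoter windows on GRCh38.p14. Each is the longest run, within the 250 bases before the start, that overlaps no annotated exon, and it need not reach the start. They are written 5′ to 3′ along the gene's own strand. Capitals mark the ETS core CGGAAG or CTTCCG and the CCAAT box, CCAAT or ATTGG. The windows are chr6:159789704-159789811 (minus strand) for TCP1, chr12:69585209-69585425 (plus) for CCT2, chr1:156338312-156338502 (minus) for CCT3 and chr2:73234058-73234235 (plus) for CCT7. Those of CCT3 and CCT7 lie inside the gene spans given above, which reach further upstream than the RefSeq starts used, and those of TCP1 and CCT2 lie outside.
TCP1: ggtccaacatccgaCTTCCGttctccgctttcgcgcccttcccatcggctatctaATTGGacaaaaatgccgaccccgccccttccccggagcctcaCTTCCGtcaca
CCT2: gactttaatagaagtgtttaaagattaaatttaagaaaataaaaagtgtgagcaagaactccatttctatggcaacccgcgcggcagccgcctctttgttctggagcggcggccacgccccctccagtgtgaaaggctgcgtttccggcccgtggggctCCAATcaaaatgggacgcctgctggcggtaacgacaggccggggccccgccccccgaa
CCT3: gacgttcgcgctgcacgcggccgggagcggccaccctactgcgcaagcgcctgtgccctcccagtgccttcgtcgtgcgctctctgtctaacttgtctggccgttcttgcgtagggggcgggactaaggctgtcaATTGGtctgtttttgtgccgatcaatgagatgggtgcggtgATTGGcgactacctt
CCT7: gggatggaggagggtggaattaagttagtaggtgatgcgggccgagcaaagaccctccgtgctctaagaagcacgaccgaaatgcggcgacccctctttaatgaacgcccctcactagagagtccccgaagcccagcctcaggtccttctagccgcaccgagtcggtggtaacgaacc

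The TCP1 stretch holds 2 ETS cores and 1 CCAAT box in 108 bases, the CCT2 stretch 1 CCAAT box in 217 and the CCT3 stretch 2 in 191, while the 178 bases of CCT7 hold none of the letters searched. Over the full 250 bases before the start, on both strands, 9 windows of 7 members were searched, and CCT6A had no entry. The ETS core was in 4 of 9 member windows (TCP1, CCT2, CCT5 and CCT7) against 16.48% of 35116 windows of all genes, and the CCAAT box in 4 of 9 (TCP1, CCT2, CCT3 and CCT8) against 32.01%. Both of these motifs were added after the data had been seen. A heat shock element, GAANNTTC or TTCNNGAA, was in 2 of 9 windows, 1 of TCP1 and the second window of CCT2, against 11.58% of all. The E-box CACGTG, the NRF1 motif, the ATF4-CHOP element TGATGCAAT and the cyclic AMP element TGACGTCA were in 0 of 9 member windows, against 6.34%, 1.03%, 0.22% and 1.65% of all. These matches describe letters and are not evidence of binding.

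Between the lines, the subunits were lower in NeuT, and by unequal amounts. In untreated cells 6 of the 8 subunits were called lower, from TCP1 with a ratio of 0.715 to CCT4 with 0.857, and CCT3 and CCT7 were not called. Here called means an edgeR adjusted p under 0.05, with Benjamini-Hochberg adjustment across all 17693 genes. The lines differ in many genes, and 42.0% of all tested genes were called in this comparison, 20.8% of all as lower. Among the 928 genes averaging 200 CPM or more, as the subunits do, 30.3% were called lower. All 8 subunits had a log2 difference below 0, with a median of -0.28 against -0.02 for all tested genes. In every subunit all 4 Empty libraries lay above all 4 NeuT libraries, a pattern seen in 22.5% of tested genes.

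**Figure D1:**
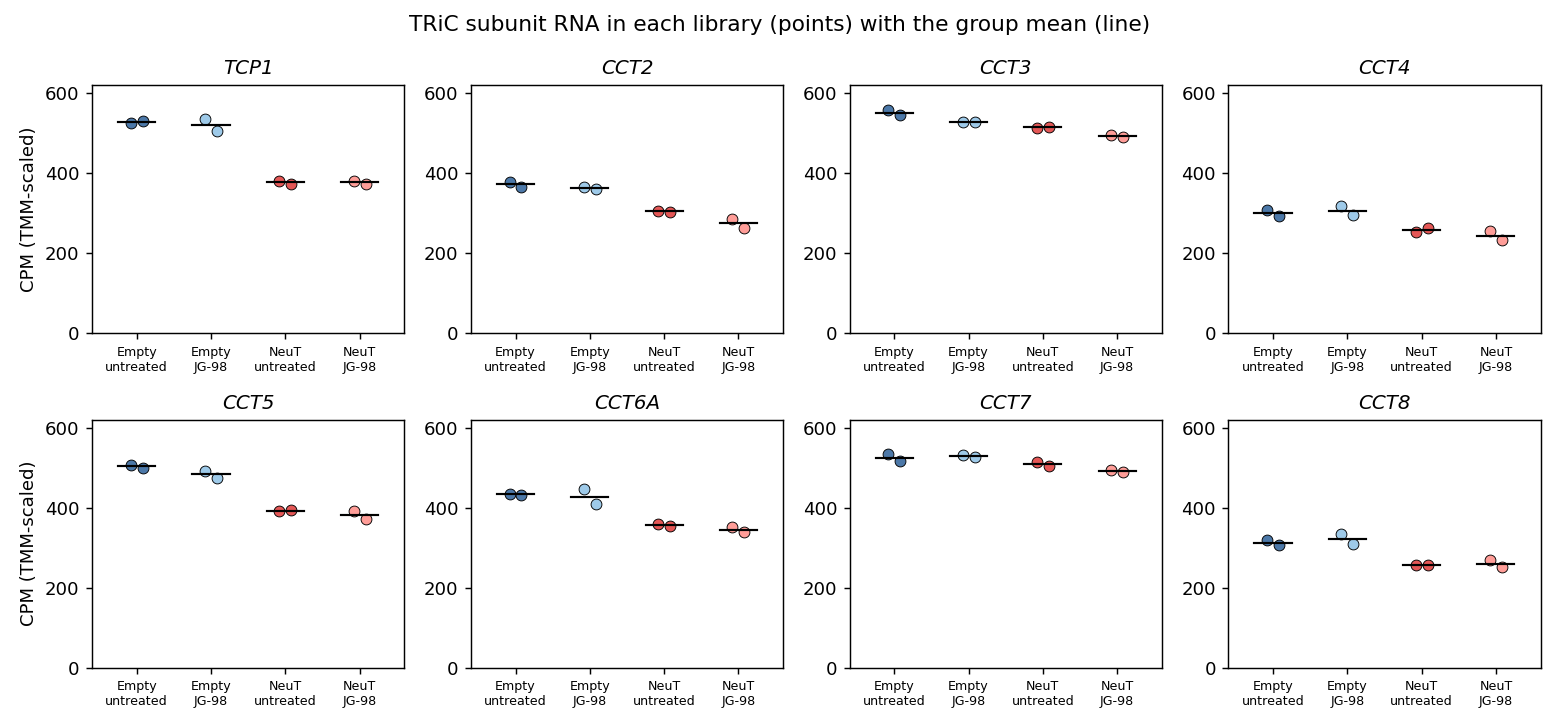
RNA level of each chaperonin subunit in TMM-scaled CPM (vertical axis, from 0) in the 4 groups, with a point for each library and a line at the mean of 2. TCP1 sits at 504.5 to 534.0 CPM in Empty and 372.0 to 380.9 in NeuT, whereas CCT7 differs little, at 515.7 to 534.3 and 489.9 to 515.3 CPM.

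Of the subunits on the side that uses ATP strongly, TCP1, the founding member of the family, differed most. It was at 524.5 and 530.0 CPM in untreated Empty, 534.0 and 504.5 in treated Empty, 380.9 and 372.8 in untreated NeuT, and 380.8 and 372.0 in treated NeuT. The libraries of each line sat close together with or without the drug, and the lines were far apart. NeuT was lower, with a difference on the log2 scale of -0.48 without treatment (SE 0.0515, 95% interval -0.59 to -0.38, edgeR adjusted p = 8.4e-07) and of -0.46 under JG-98 (SE 0.0515, edgeR adjusted p = 1.3e-06). Part of TCP1's exonic sequence, 11.2%, overlaps other genes, chiefly ACAT2 on the opposite strand. The use of strand in the counting is not stated, and ACAT2 itself, which was looked at for this overlap, differed by -0.03 on the log2 scale between the untreated lines (SE 0.0625, edgeR adjusted p = 0.717).

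CCT5 followed TCP1 in the size of its untreated difference. Its level was 507.9 and 499.6 CPM in untreated Empty, 492.8 and 475.0 in treated Empty, 391.9 and 393.6 in untreated NeuT, and 390.9 and 370.9 in treated NeuT. The lowest Empty library was still well above the highest NeuT library. The log2 difference between the lines was -0.36 untreated (SE 0.0514, 95% interval -0.47 to -0.25, edgeR adjusted p = 2.4e-05) and -0.35 under JG-98 (edgeR adjusted p = 3.6e-05). An antisense gene overlaps 30.8% of CCT5's exonic bases and had 10 counts over all 8 libraries. Of the 50-base windows of CCT5's principal transcript, 49.78% lay in another gene. Reads in shared bases can be left out of both genes when strand is not used, so the 10 counts do not measure the overlap. Its part in the level of CCT5 was not tested.

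CCT2 had 378.4 and 365.9 CPM in untreated Empty, 364.8 and 358.7 in treated Empty, 305.6 and 302.9 in untreated NeuT, and 284.6 and 263.2 in treated NeuT. It was the subunit whose treated NeuT libraries lay furthest below the untreated ones. NeuT was lower by -0.29 on the log2 scale without treatment (SE 0.0537, 95% interval -0.40 to -0.18, edgeR adjusted p = 3.0e-04) and by -0.40 under the drug (SE 0.0538, edgeR adjusted p = 1.1e-05).

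CCT4, the least abundant subunit per base of its principal transcript, was at 306.5 and 292.8 CPM in untreated Empty, 316.9 and 294.9 in treated Empty, 251.8 and 261.8 in untreated NeuT, and 253.9 and 232.1 in treated NeuT. The lines did not overlap, and its differences had the largest SE of the 8. The log2 difference was -0.22 untreated (SE 0.0592, 95% interval -0.35 to -0.10, edgeR adjusted p = 0.00577) and -0.33 under JG-98 (edgeR adjusted p = 2.2e-04). The untreated call was lost without untreated Empty replicate 1 (edgeR adjusted p = 0.0862) or without untreated NeuT replicate 1 (0.101), and over its alternatives the adjusted p ranged from 2.26e-05 to 0.101.

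On the side that uses ATP weakly, CCT6A and CCT8 were called and CCT3 and CCT7 were not. CCT6A was at 433.4 and 432.9 CPM in untreated Empty, 447.1 and 408.5 in treated Empty, 358.8 and 354.1 in untreated NeuT, and 351.7 and 339.1 in treated NeuT. The untreated replicates were nearly level within each line. Its log2 difference was -0.28 untreated (SE 0.0547, 95% interval -0.40 to -0.17, edgeR adjusted p = 4.8e-04) and -0.31 under JG-98 (edgeR adjusted p = 2.1e-04).

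CCT8 was at 318.2 and 307.7 CPM in untreated Empty, 335.4 and 308.9 in treated Empty, 256.6 and 257.3 in untreated NeuT, and 268.1 and 251.3 in treated NeuT. The lowest Empty library stood above the highest NeuT library by more than the gap between any pair of replicates. NeuT was lower by -0.28 untreated (SE 0.0565, 95% interval -0.40 to -0.16, edgeR adjusted p = 5.9e-04) and by -0.31 under the drug (edgeR adjusted p = 2.6e-04), both on the log2 scale. Among the members CCT8 had the most counts in a named copy, the pseudogene CCT8P1, whose 8168 counts over all libraries amount to 6.67% of the 122501 of CCT8. CCT8P1 held 8.59% of the 50-base windows of CCT8's principal transcript and 0.0% of its 100-base windows. Reads from shared stretches can be split by the counting, so the counts of CCT8 and CCT8P1 carry that uncertainty. CCT8P1 was itself lower in untreated NeuT (log2 difference -0.26, SE 0.0814, edgeR adjusted p = 0.0151), and adding its counts to CCT8 left the log2 ratio of the untreated means at -0.28. Named pseudogenes of the other members had at most 0.616% of their counts.

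CCT3 was at 556.3 and 545.0 CPM in untreated Empty, 527.8 and 526.6 in treated Empty, 513.6 and 515.8 in untreated NeuT, and 496.1 and 488.8 in treated NeuT. The lines did not overlap, though they came close to each other. The log2 difference was -0.10 in untreated cells (SE 0.0489, 95% interval -0.20 to 0.01, edgeR adjusted p = 0.124) and -0.10 under JG-98 (edgeR adjusted p = 0.121). CCT7 was at 534.3 and 515.7 CPM in untreated Empty, 532.9 and 525.9 in treated Empty, 515.3 and 504.1 in untreated NeuT, and 493.9 and 489.9 in treated NeuT. The lower untreated Empty library and the higher untreated NeuT library lay next to each other. The log2 difference was -0.04 untreated (SE 0.0497, 95% interval -0.15 to 0.06, edgeR adjusted p = 0.532) and -0.11 under JG-98 (SE 0.0498, 95% interval -0.21 to -0.00086, edgeR adjusted p = 0.101). These intervals leave room for a fall of CCT3 and CCT7 in NeuT, but not for one as large as that of TCP1.

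Under JG-98 the comparison of the lines had the same outline. The subunits called were TCP1, CCT2, CCT4, CCT5, CCT6A and CCT8, again 6 of 8 and all lower, where 41.7% of tested genes were called, 20.0% were called lower, and 30.2% of those averaging 200 CPM or more were called lower. The median log2 difference of the subunits was -0.32, against -0.00 for all genes. The calls of CCT3 in both line comparisons, and of CCT7 under JG-98, depend on the scaling of the libraries. When libraries were scaled by their total counts alone, CCT3 was also called in untreated cells (edgeR adjusted p = 0.0102), and CCT3 and CCT7 were both called under JG-98 (0.00793 and 0.00607). CCT3 was also called in untreated cells when only those 4 libraries were fitted (edgeR adjusted p = 0.0155). That scaling moved all genes downward in NeuT, with medians of -0.08 in both comparisons. It gave 4505 lower and 3087 higher calls among all genes in untreated cells against 3675 and 3748 with TMM, and 4465 and 3106 against 3541 and 3839 under JG-98. All 8 subunits stayed below 0 in both line comparisons under every one of the 17 alternatives.

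**Figure D2:**
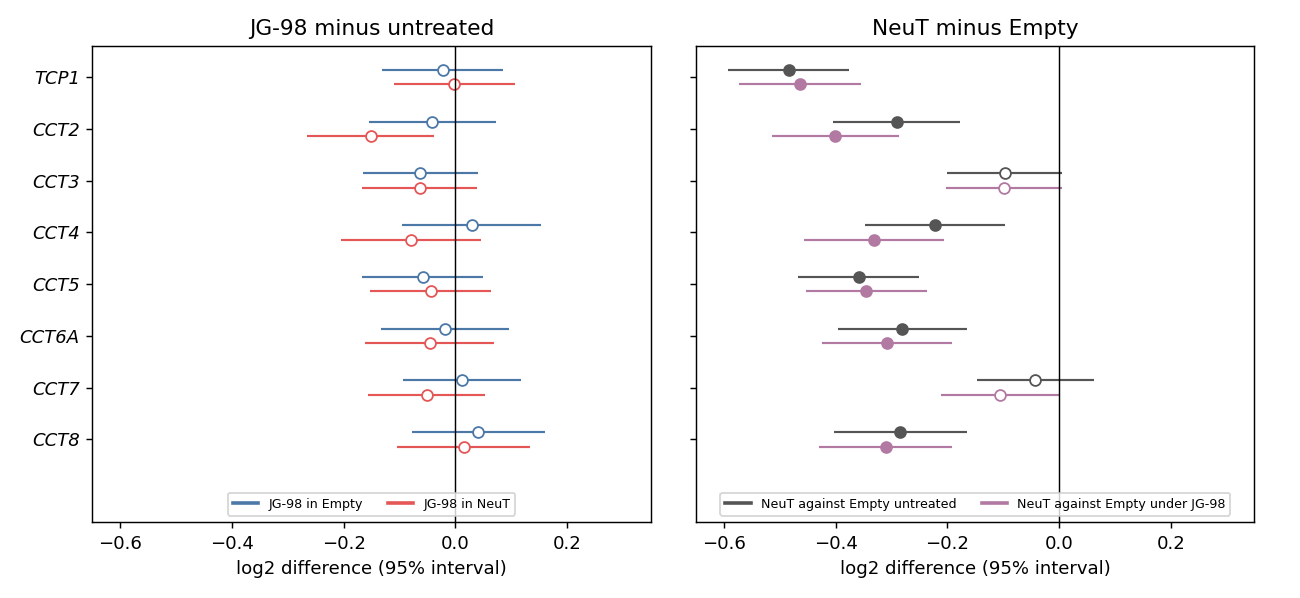
Log2 differences of the 8 subunits with 95% intervals (horizontal axis), for JG-98 minus untreated on the left and NeuT minus Empty on the right, with filled points where the edgeR adjusted p was under 0.05. No point on the left is filled, and on the right every subunit except CCT3 and CCT7 is filled in both comparisons, with TCP1 furthest from 0 at -0.48 and -0.46.

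The summed RNA of the subunits followed the same split. The 8 levels added to 3560 and 3490 CPM in untreated Empty, 3552 and 3403 in treated Empty, 2974 and 2963 in untreated NeuT, and 2920 and 2807 in treated NeuT. Untreated means were 3525 ± 49 CPM (SD, n = 2) in Empty and 2969 ± 8.4 CPM (SD, n = 2) in NeuT, so that the sum was 15.8% lower in NeuT. In bulk samples such as these, fewer cells of a type and less RNA per cell cannot be told apart. The epithelial markers moved with the line too. Their summed level was 23960 to 24640 CPM in untreated Empty and 30430 to 31010 CPM in untreated NeuT, with 6 of 9 called higher and 2 lower, and among the 5 markers of other cells PECAM1 was called lower (log2 difference -0.46, edgeR adjusted p = 0.0157) and CDH5, at 0.0705 and 0.123 CPM in untreated Empty and 0.621 and 0.297 in untreated NeuT, was called higher (edgeR adjusted p = 0.00782). Of all tested genes 42.0% were called in this comparison. The part of these markers in the subunit result was not tested.

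Shares of the summed RNA do not depend on library scaling, and they add to 100%, so that a lower share of some subunits goes with a higher share of others. TCP1 took 14.7 to 15.2% of the sum in the 4 Empty libraries and 12.6 to 13.3% in the 4 NeuT libraries. CCT5 also took less in NeuT, 13.2 to 13.4% against 13.9 to 14.3%. CCT3 took 17.0 to 17.4% in NeuT against 14.9 to 15.6% in Empty, and CCT7 16.9 to 17.5% against 14.8 to 15.5%. For these 4 subunits the lines did not overlap, while the shares of CCT2, CCT4, CCT6A and CCT8 overlapped between them. The ratio of TCP1 to CCT7, a pair picked after the values were seen, lay between -0.06 and 0.04 on the log2 scale in Empty and between -0.44 and -0.38 in NeuT. These shares were not tested.

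**Figure D3:**
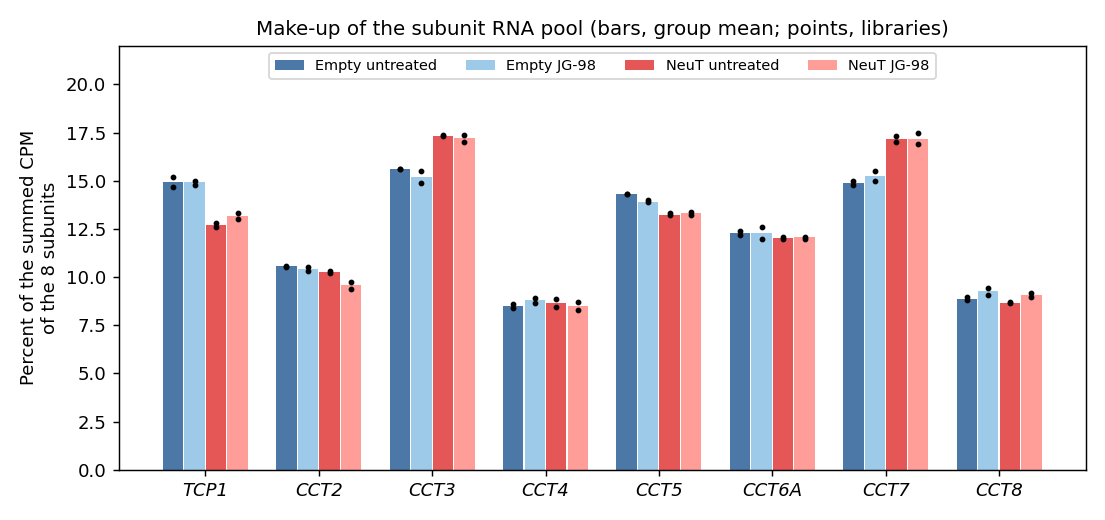
Percent of the summed CPM of the 8 subunits taken by each (vertical axis, from 0), with bars for the mean of each group and points for its 2 libraries. TCP1 averages 15.0% in untreated Empty and 12.7% in untreated NeuT, while CCT7 is at 14.9 and 17.2% and CCT3 at 15.6 and 17.3%.

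JG-98 left no subunit called in either line. In Empty cells 0 of 8 subunits were called by edgeR, DESeq2 or limma-voom, none had an unadjusted edgeR p under 0.05, and 0.339% of all tested genes were called. Log2 differences ran from -0.06 for CCT3 to 0.04 for CCT8, with edgeR adjusted p-values of 0.734 to 0.965. The 95% intervals of all 8 lay between -0.17 and 0.16, and the values were below 0 for 5 of 8 subunits, with a median of -0.02, which was -0.06 without treated replicate 1 and 0.02 without treated replicate 2. In the authors' deposited table for Empty cells the log2 fold changes of the 8 genes ran from -0.064 to 0.037 and adjusted p-values from 0.691 to 0.997.

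In NeuT cells the count was again 0 of 8 by edgeR, DESeq2 and limma-voom, where edgeR called 3.01% of tested genes. Log2 differences ran from -0.15 for CCT2 to 0.02 for CCT8, and the 95% intervals lay between -0.27 and 0.13. The values were below 0 for 7 of 8 subunits, with a median of -0.05, which was -0.08 without treated replicate 1 and -0.03 without treated replicate 2. CCT2 was the only subunit with an unadjusted p under 0.05. Its log2 difference was -0.15 (SE 0.0537, 95% interval -0.27 to -0.04, edgeR adjusted p = 0.163). CCT2 was not called in the main fit. Without treated NeuT replicate 1, which leaves 1 library in that group, the difference was -0.21 and was called. That fit borrows the spread of the other groups. Treated NeuT replicates differed most beyond counting noise, with a chi-square per gene of 22.1 against 4.52 to 8.2 in the other groups. In the authors' deposited table for NeuT cells the log2 fold changes ran from -0.153 to 0.015, and the smallest adjusted p, 0.165, was that of CCT2.

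The effect of the drug averaged over both lines called 0 of 8 subunits by edgeR, DESeq2 and limma-voom, against 3.97% of tested genes by edgeR, and again CCT2 alone had an unadjusted p under 0.05 (log2 difference -0.10, SE 0.038, edgeR adjusted p = 0.192). It too was called without treated NeuT replicate 1 (edgeR adjusted p = 0.0132). The difference between the drug effects of the lines, tested as an interaction, called 0 of 8 by each of the 3 tools, with 0 unadjusted edgeR p-values under 0.05, and edgeR called 0.00565% of tested genes. Interaction values ran from -0.11 for CCT2 to 0.02 for TCP1, with edgeR adjusted p-values of 0.746 to 0.999. A change of the line difference with the drug was therefore not shown for any subunit.

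Except in untreated NeuT, the libraries of a group mostly shared the direction of their deviations across subunits. In treated Empty and in treated NeuT, the library numbered 1 was above the library numbered 2 for 8 of 8 subunits, by medians of 0.07 and 0.06 on the log2 scale. In untreated Empty this held for 7 of 8, with a median of 0.04, and in untreated NeuT for 4 of 8, with a median of 0.00. Over all 8 libraries the correlation of log2 CPM between pairs of subunits ran from 0.776 to 0.988 with a median of 0.94 (28 pairs), over libraries that differ in line and treatment. Within groups, after each group's mean was taken out, it ran from 0.1 to 0.966 with a median of 0.706, and the points share their libraries and their scaling.

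Levels can be compared between subunits only per base of transcript, here as RPKM, the CPM divided by the length in kilobases. Over the principal transcripts, untreated Empty cells held 274 ± 6.9 RPKM of CCT7, 256 ± 3.7 of CCT3, 211 ± 1.6 of TCP1 and 182 ± 4.3 of CCT2 (SD, n = 2). They held 159 ± 0.15 RPKM of CCT6A, 156 ± 3.7 of CCT8, 137 ± 1.6 of CCT5 and 119 ± 3.9 of CCT4 (SD, n = 2). CCT6A and CCT8 did not differ beyond the spread of CCT8, and the other neighbours in this order did not overlap. In treated cells CCT8 and CCT6A stood in the reverse order in both lines. The chamber holds its subunits in equal number, and their RNA per base spanned a ratio of 2.3 from the highest to the lowest in untreated Empty and 2.61 in untreated NeuT, where CCT7 was at 266 ± 4.1 and CCT4 at 102 ± 2.8 RPKM (SD, n = 2). With the deposited length of all exons of a gene, the ratio was 1.66 in untreated Empty and 2.04 in untreated NeuT. CCT7 and CCT3 were highest under both lengths, and the order of the others depended on the length used. Shared sequence differed between members too. Of the 50-base windows of the principal transcript, 49.78% of CCT5's, 22.08% of TCP1's and 10.48% of CCT4's lay in another gene. CCT8 had 8.59%, CCT6A 6.67%, and CCT2, CCT3 and CCT7 0.0%. Strand use in the counting is not stated, and the part of shared sequence in this order and these ratios was not tested.

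The other genes of the folding pathway did not share 1 direction between the untreated lines. Of the prefoldin subunits and phosducin-like partners, which deliver clients to the chamber or regulate it, 1 of 8 tested was called, PFDN5, and it was higher in NeuT (log2 difference 0.37, SE 0.0802, edgeR adjusted p = 0.00156), where 42.0% of all tested genes were called. PFDN6 was listed at 0 in every library and was not tested. This count of 1 was 2 or 3 under 8 of 17 alternatives, among them 2 without either treated Empty library and 3 without either treated NeuT library, where PFDN2 (log2 difference 0.19, edgeR adjusted p = 0.064) or VBP1 (-0.16, 0.0865) passed as well. Under JG-98 the list had 1 call in each direction, PFDN5 (0.33) and VBP1 (-0.23, edgeR adjusted p = 0.0127), beside 41.7% of all tested genes called. Both were lost without treated Empty replicate 2 (edgeR adjusted p = 0.0578 and 0.0769), and VBP1 also without treated NeuT replicate 2 (0.129). The VBP1 call was also lost when only the 4 treated libraries were fitted (edgeR adjusted p = 0.0558). The median of the list was 0.00 in untreated cells, beside -0.02 for all genes.

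Among relatives of the chaperonin, the mitochondrial chaperonin HSPD1 and its lid HSPE1 were lower in NeuT. HSPD1 was at 910.0 and 905.0 CPM in untreated Empty and 507.4 and 507.2 in untreated NeuT, a larger difference than that of any TRiC subunit in these data (log2 difference -0.84, SE 0.0525, edgeR adjusted p = 1.2e-09). HSPE1 stood at -0.66 on the same scale (SE 0.104, edgeR adjusted p = 7.0e-05), and the other 4 of 6 tested relatives were not called in untreated cells, beside 42.0% of all tested genes called. Under JG-98, where 41.7% of all tested genes were called, HSPD1 and HSPE1 were again lower, and BBS10 (0.34, edgeR adjusted p = 0.00644) and BBS12 (0.37, 0.0438), relatives tied to Bardet-Biedl syndrome, were called higher. Without treated Empty replicate 2 neither of these BBS genes was called (edgeR adjusted p = 0.0555 and 0.18), and BBS12 kept its call under 5 of 17 alternatives. CCT8L2 was not tested. Of 7 cytosolic heat shock genes, 5 were called lower and none higher in untreated NeuT, where 20.8% of all tested genes were called lower and 30.3% of those averaging 200 CPM or more. They were HSP90AA1, an Hsp90 chaperone, at -0.84 (edgeR adjusted p = 1.5e-09), HSPH1, an Hsp70 exchange factor, at -0.70 (2.8e-08), HSP90AB1 at -0.55 (9.4e-08), the linker of Hsp70 and Hsp90 STIP1 at -0.35 (2.6e-05) and the Hsp70 partner DNAJA1 at -0.27 (4.1e-04). HSPA8, the constitutive Hsp70, was not called at a difference of 0.04 (SE 0.0505, edgeR adjusted p = 0.592).

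Clients of the chamber were divided, against a background of 42.0% of all tested genes called, 20.8% as lower. Of 16 actin and tubulin genes, 7 were called lower in untreated NeuT and 3 higher, and the calls split by kind. All 7 lower genes were tubulins, led by TUBA1A (log2 difference -0.61, edgeR adjusted p = 6.4e-07) and TUBA1B (-0.61, 2.4e-07). The 3 higher genes were of the actin family, ACTA2 (0.93, edgeR adjusted p = 3.6e-06), ACTR3 (0.26, 4.5e-04) and ACTG1 (0.13, 0.0434). The ACTG1 call was lost under 7 of 17 alternatives, among them total counts (edgeR adjusted p = 0.295). The tubulin cofactors, which take over tubulin after the chamber, had 1 call in each direction among 5, TBCB (0.47, edgeR adjusted p = 2.4e-06) and TBCD (-0.45, 4.5e-05), a share near that background. Among 10 other clients 3 were lower, CDC20, the mitotic activator with WD repeats (-1.85, edgeR adjusted p = 1.7e-11), WRAP53 (-0.47, 1.2e-04) and the cyclin CCNE1 (-0.26, 0.00722). The 4 higher were VHL (0.34, edgeR adjusted p = 0.02), HDAC3 (0.18, 0.0154), GNB1 (0.16, 0.0203) and PPP2R2A (0.14, 0.042). This count of 7 was 2 without untreated Empty replicate 1, 3 without any other untreated library and 4 with total counts.

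**Figure D4:**
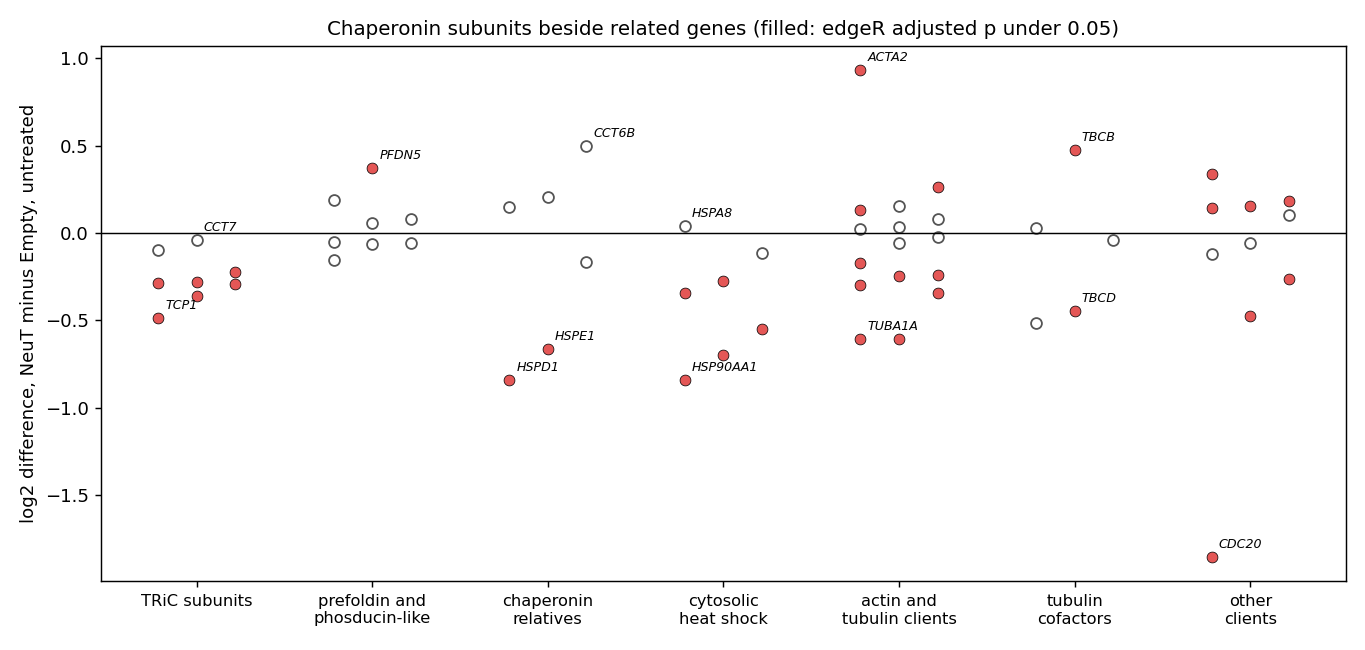
Log2 difference between untreated NeuT and untreated Empty (vertical axis) for each tested gene of the subunit list and of 6 lists of related genes, filled where the edgeR adjusted p was under 0.05. The 8 subunits all sit below 0, from -0.48 to -0.04, and so do all cytosolic heat shock genes but HSPA8, while the other 5 lists lie on both sides of 0.

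Of the 52 tested genes in these 6 lists, JG-98 changed 0 in Empty cells by edgeR, DESeq2 and limma-voom, with 4 at an unadjusted edgeR p under 0.05, beside 0.339% of all tested genes by edgeR. In NeuT cells 7 were called by edgeR, 9 by DESeq2 and 8 by limma-voom, beside 3.01% of all tested genes by edgeR. Among the heat shock genes 0 were called in NeuT by edgeR. With all libraries kept, 1 was called by DESeq2, by limma-voom and by edgeR with no filter on low counts. Without treated NeuT replicate 1 the NeuT calls rose from 2 to 4 among the other clients, from 0 to 2 among the prefoldin list (VBP1 and TXNDC9) and from 0 to 1 among the heat shock genes (HSPA8). TUBA1B was called in Empty under 3 of 17 alternatives. Of 16 actin and tubulin genes, 5 were called lower in NeuT, all tubulins, TUBA1A (log2 difference -0.38, edgeR adjusted p = 0.00264), TUBB4B (-0.32, 0.00357), TUBA4A (-0.23, 0.0284), TUBA1C (-0.21, 0.0399) and TUBB6 (-0.21, 0.0487). This count of 5 was 0 without untreated NeuT replicate 1, 1 without untreated NeuT replicate 2, 2 without either untreated Empty library and 3 without treated NeuT replicate 2. Of 10 other clients CDC20 (-0.41, edgeR adjusted p = 0.00661) and CCNE1 (-0.32, 0.0248), were lower. Both were lost without untreated NeuT replicate 2 (edgeR adjusted p = 0.13 and 0.314), and CCNE1 was lost as well without untreated NeuT replicate 1 (0.0994), treated NeuT replicate 2 (0.0743) or either untreated Empty library (0.059 and 0.0585). When only the 4 NeuT libraries were fitted, neither was called (edgeR adjusted p = 0.0614 for CDC20 and 0.115 for CCNE1) and the tubulin count of 5 was 2. The interaction called 0 of the 52 genes by edgeR, DESeq2 and limma-voom, with 4 at an unadjusted edgeR p under 0.05, beside 0.00565% of all tested genes by edgeR. With all libraries kept and no filter on low counts, it called CDC20 of these genes (-0.34, edgeR adjusted p = 0.021). Without treated NeuT replicate 1 it called TUBA1A, TUBA1C, TUBB4B and CDC20 among them (edgeR adjusted p = 0.00368, 0.0404, 0.00584 and 0.000284).

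The genes whose level across the 8 libraries was most like the mean of the subunits were ATP5F1A, a subunit of the mitochondrial ATP synthase, with a Pearson r of 0.9989, MXD3 (0.9977), NUP37 (0.9974), CXXC5 (0.9974) and PTGES3 (0.9973). They rank first among 13108 genes averaging 50 counts or more, and the libraries share the line and the scaling. Their log2 differences between the untreated lines were -0.30 for ATP5F1A, -1.01 for MXD3, -0.67 for NUP37, -0.66 for CXXC5 and -0.48 for PTGES3, an Hsp90 co-chaperone also called p23. The likeness is one of pattern and not of size, since MXD3 differed by more than any subunit.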

How the data were processed

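Poly(A)-selected RNA of 8 MCF-10A libraries was sequenced, per the labels' protocols. The authors deposited raw counts per gene with an exonic length, per the file headers, and the submitters' processing notes name Trim Galore 0.5.0, FastQC 0.11.7, HISAT2 2.1.0, SAMtools 1.9, featureCounts 1.6.3, limma and the builds hg38 and GRCh38. Annotation release, strand setting and multi-mapping rules are not given in the sources used here. For each line the authors also deposited log2 fold changes with raw and adjusted p-values for treated against untreated cells, beside test scores not used here, per the file headers.

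Groups came from sample titles. Symbols were matched for 60261 of 60617 identifiers. Genes kept by filterByExpr (minimum count 10, total 15) were fitted with edgeR 4.0.16 in R 4.3.3, with TMM scaling and 1 robust quasi-likelihood model of 4 group means. Benjamini-Hochberg adjustment ran over 17693 genes in each of 6 contrasts. Standard errors are the log2 difference over the square root of F. Replicates differed beyond counting noise (chi-square per gene 4.52 to 22.1). The scripts were tested on simulated data. DESeq2 1.42.0, limma-voom 3.58.1 and other alternatives were run. RPKM used GENCODE 29 principal transcripts or deposited lengths. The members and gene lists were chosen with earlier results of these data known. The named genes are the 8 members, up to 3 called genes of each list by size, members with a described role, and the 5 genes most like the members. Further genes were named after their values were seen, where a count was small or an overlap or setting bore on it. No protein comparison was made.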

Additional observations from a re-analysis of the deposited data

How the results depend on the processing

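Scaling, filters, tools and left-out libraries were varied in 17 alternatives for the single contrasts and 16 for the averaged effect and the interaction, and 0 called subunits reversed direction. The number of subunits called stayed at 6 to 7 in untreated cells and 6 to 8 under JG-98 over the alternatives that kept all libraries, and at 5 to 6 and 6 when each library was left out in turn. It was 0 in the drug comparisons, except 1 in NeuT and 1 in the averaged effect without treated NeuT replicate 1, a range of 0 to 1. With total counts the median log2 difference between the lines was -0.3516 untreated and -0.3953 under JG-98. With each library left out in turn the median ran from -0.3706 to -0.2648 for the lines under JG-98, from -0.2964 to -0.2609 for the untreated lines, from -0.0587 to 0.0187 for JG-98 in Empty, from -0.0754 to -0.0261 for JG-98 in NeuT, from -0.058 to -0.008 for the averaged effect and from -0.0773 to 0.0173 for the interaction, and the cause of these shifts was not tested.

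Replicate differences correlated between groups at -0.101 to 0.244 over 9549 genes, with 0.244 between treated Empty and treated NeuT. The main model did not pair the samples, and a replicate effect shared by the treated groups alone was not tested. With the replicate block the counts were 6, 6, 0, 0, 0 and 0 and the medians -0.2825 and -0.3214 for the lines, and the block changed no call of a subunit. The calls over all genes moved more. JG-98 in Empty called 60 genes, with 9 to 417 when a library was left out and 282 with no filter on low counts. JG-98 in NeuT called 533, with 132 to 2133 when a library was left out, 185 with only the 4 libraries compared and 1000 with no filter. The averaged effect called 702, with 259 to 1934 and 1142, and the interaction 1, with 1 to 777 and 138. The highest of these left-out counts were without treated NeuT replicate 1. With 2 libraries per group the spread is borrowed across genes and groups, and a group left with 1 library is assumed to vary like the others.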
